A study of Mus musculus with 24 samples.

Results

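The 7 interferon-stimulated genes Isg15, Ifit1, Ifit2, Ifit3, Usp18, Irf7 and Ifi35 were followed in mouse lung after bleomycin in 2 strains and at 3 times. They were chosen by name, with earlier results of these data known, so member counts set beside the share of all probe sets are descriptive. Every probe set that the array annotation gives to one of them was taken: 8 of the 12422 probe sets that are not controls, with 2 for Irf7 and 1 for each other gene. They are 7 of the 8251 genes that have a probe set of their own on the array. All 8 passed the filter on dim probe sets, which left 8710 for testing. The 4 arrays of C57BL/6J lungs at 24 h and 72 h after bleomycin carried the highest signals of the series for 6 of the 8 probe sets, above all the other 20 arrays, a pattern shown by 0.471% of all probe sets tested.

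The arrays were Affymetrix MG-U74Av2 arrays with 1 sample each, of total RNA from whole lung of C57BL/6J or BALB/c mice (C57BL-6J and BALB-c in the labels). The mice received bleomycin, a drug that breaks DNA and injures the lung, at 1.5 U per kg into the trachea, or saline by the same route, and lungs were taken at 24 h, 72 h or 14 d. Each of the 12 groups of strain, treatment and time had 2 arrays, called a and b in the titles. No age, sex or allele is given, and nothing says that a and b came from separate animals or whether lungs were pooled, so every p-value measures only the spread between these arrays, which may be technical. Values are linear intensities without a physical unit, and a fold change compares a probe set with itself and not with another probe set. In RNA from a whole lung, fewer cells of a type and less RNA per cell cannot be told apart.

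Groups follow the titles, which the descriptions contradict for the BALB/c saline arrays of 72 h (described as bleomycin) and leave unclear for the BALB/c arrays of 24 h, where the saline arrays are described with either treatment and the bleomycin arrays with several times. A second fault concerns strain. H2-Ea, a class II gene that C57BL/6J mice do not express, read 2917 to 6068 on BALB/c arrays and 26 to 166 on C57BL/6J arrays at all groups other than saline at 72 h. There it read 4821 and 3622 on the arrays labelled C57BL/6J and 89 and 48 on those labelled BALB/c. The arrays labelled saline at 72 h thus go against their strain labels, and the members' changes at 72 h are given as labelled, without these arrays and with the 2 labels exchanged. The C57BL/6J saline arrays of 24 h also stand apart, with maxima of 43230 and 78641 against 6888 to 21462 on the other arrays, both set by Sftpc, the surfactant protein C gene of alveolar type 2 cells. Only this group has that feature, and only its array titles end in s1, where the others end in s2 or s2a. The titles do not say what these endings mean. Neither the signal nor the ending can be told apart from the group. Lung markers were present, with Scgb1a1 of airway secretory cells at 129 to 54860 and endothelial Pecam1 at 103 to 706.

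Type I and type II interferons bind cell surface receptors and signal through Janus kinases and STAT proteins. Type I interferon brings a complex that contains IRF9 to the interferon-stimulated response element, a short sequence in the promoters of its target genes, whereas interferon gamma acts mainly through gamma-activated sites. The members cover several layers of this response. Isg15 encodes a ubiquitin-like modifier and Usp18 the protease that takes it off proteins and also damps the type I receptor. Ifit1, Ifit2 and Ifit3 encode tetratricopeptide-repeat proteins that act on viral RNA and translation. Irf7 is a transcription factor that amplifies interferon production, and Ifi35 is an interferon-induced leucine zipper protein.

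Promoters of 6 of the 7 genes were found in the RefSeq promoter table (GRCm38.p6), as windows from 250 bases before to 50 bases after the start, with 2 windows for Ifit2 and none for Usp18. The core of the response element, written as GAAA, any 2 bases, GAAA, was searched on both strands and occurred in Isg15, Ifit1 and Ifit3, against 3.44% of all 32851 windows of that length. The windows are printed because these 3 genes hold the matches and rose in C57BL/6J (below). Each runs 5′ to 3′ on the gene's strand from base -180 to base -41 relative to the start, with the matched cores in capitals.
Isg15: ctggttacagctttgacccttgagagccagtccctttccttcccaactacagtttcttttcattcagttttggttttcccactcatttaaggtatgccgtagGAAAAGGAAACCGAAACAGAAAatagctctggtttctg
Ifit1: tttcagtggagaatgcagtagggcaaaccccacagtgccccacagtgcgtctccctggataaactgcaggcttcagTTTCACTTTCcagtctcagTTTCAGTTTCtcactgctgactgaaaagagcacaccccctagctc
Ifit3: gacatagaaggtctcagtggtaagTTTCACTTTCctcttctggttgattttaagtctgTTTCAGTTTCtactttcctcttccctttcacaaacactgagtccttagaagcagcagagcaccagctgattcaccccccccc
The Isg15 window lies at chr4:156200859-156200998 on the minus strand and holds 3 overlapping matches, which start at -78, -72 and -66. The Ifit1 window, at chr19:34640709-34640848 on the plus strand, holds matches on the other strand at -104 and -85. The Ifit3 window, at chr19:34583349-34583488 on the plus strand, holds them on the other strand at -156 and -122. The windows of Ifit2, Irf7 and Ifi35 hold no match to these letters. The gamma-activated site core, TTC, any 3 bases, GAA, reads alike on both strands, does not overlap the response element matches, and occurred in a window of Ifit2 (from -241) and in that of Ifi35 (from 7), against 8.3% of all windows.

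Bleomycin was compared with saline within each strain and time on log2(intensity + 91.7), and a probe set was called at a limma Benjamini-Hochberg adjusted p under 0.05 over all probe sets tested. In C57BL/6J, 5 of the 8 member probe sets were called higher at 24 h, where 2.23% of all probe sets were called, and 7 of 8 were called higher at 72 h as labelled, where 6.62% were called. With the C57BL/6J saline arrays of 14 d in place of those of 24 h, which stand apart, 7 of 8 were called higher at 24 h: the log2 changes became 1.70 for Isg15, 1.92 for Ifit1, 1.58 for Ifit3, 1.44 for Usp18, 1.20 for Irf7 104669_at, 0.72 for 162202_f_at and 0.50 for Ifi35, with adjusted p up to 0.0423. Under that choice 4.94% of all probe sets were called. At 72 h, 7 of 8 were called without the saline arrays of that time, against 5.99%, and 6 of 8 with exchanged labels, against 2.59%. At 14 d 1 of 8 was called, Ifi35, which was lower, against 7.43% of all probe sets. The median member change in C57BL/6J was 1.19 at 24 h, 1.70 at 72 h and -0.04 at 14 d on the log2 scale, against medians over all probe sets of 0.04, -0.03 and -0.07. In BALB/c, none of the 8 was called by limma at 24 h, where 0.218% of all probe sets were called. At that time 2 of the 8 and 1182 of all 8710 probe sets had an unadjusted p under 0.05. In the same strain, 1 was called at 72 h as labelled (Irf7, higher), against 1.32%, and 2 at 14 d (Usp18 and Irf7, higher), against 13.3%. In BALB/c at 72 h, 3 were called without the saline arrays of that time, against 6.04%, and 2 with exchanged labels, against 0.0804%. The BALB/c median changes were 0.23, 0.46 and 0.06, against 0.04, -0.00 and 0.04 over all probe sets. Both bleomycin arrays lay above both saline arrays for 8 of 8 members in C57BL/6J at 24 h and at 72 h as labelled, where 26.1% and 25.7% of all probe sets did so, and in BALB/c for 5 of 8 at 24 h and 8 of 8 at 72 h as labelled, where 27.9% and 23% did so. Both lay below for 3 of 8 in BALB/c at 24 h, against 18.7%. At 14 d both lay above for 1 and below for 2 of 8 in C57BL/6J, against 17.1% and 27.2%, and above for 3 and below for 2 in BALB/c, against 32.2% and 26.7%.

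**Figure D1:**
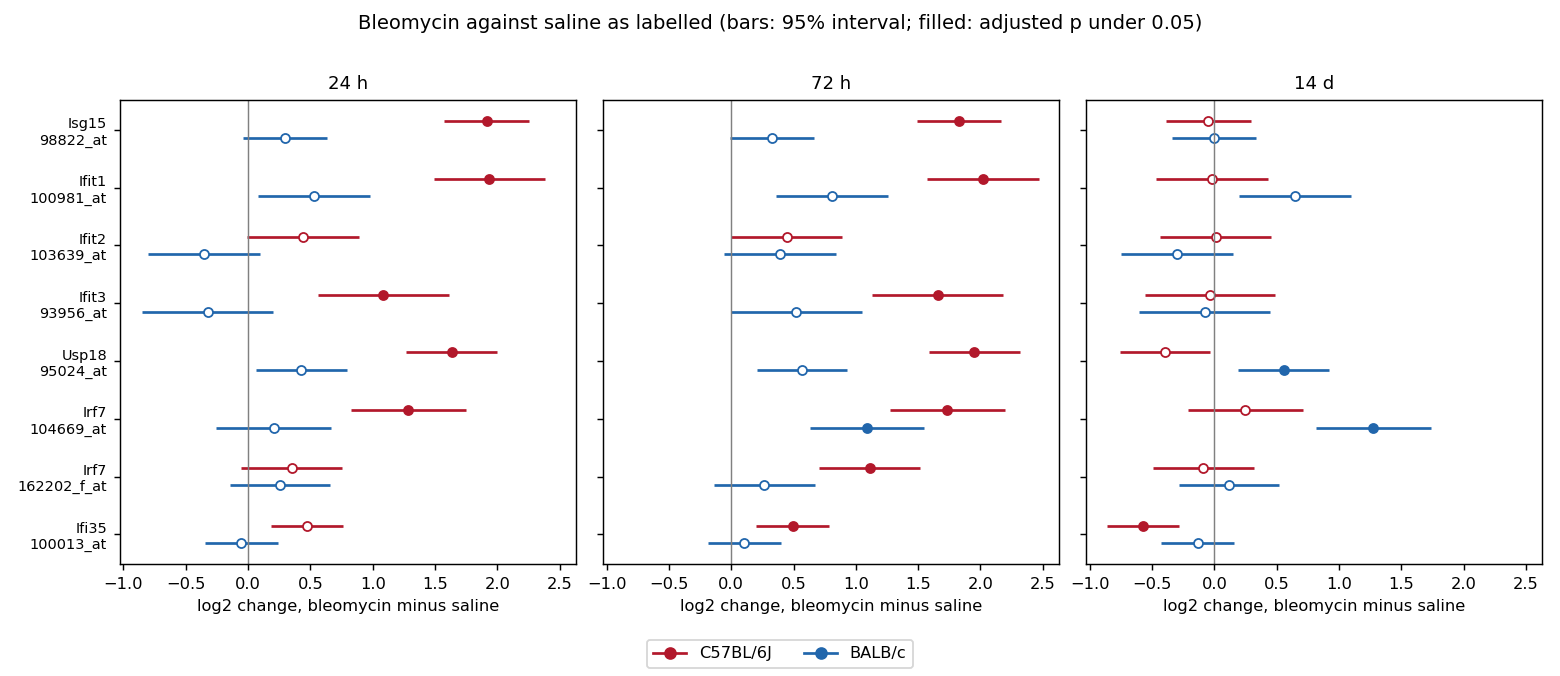
Log2 change from saline to bleomycin, as labelled, for the 8 member probe sets (rows) in C57BL/6J (red) and BALB/c (blue) at 24 h, 72 h and 14 d, with 2 arrays a group. Bars are 95% intervals and filled points passed an adjusted p under 0.05; filled red points stand at 24 h for 5 probe sets and at 72 h for 7, and at 14 d the only filled red point, Ifi35, lies below 0.

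Isg15 (98822_at) was the member with the smallest adjusted p at 24 h in C57BL/6J. Its intensities on arrays a and b of C57BL/6J bleomycin lungs were 3938 and 3407 at 24 h, 3221 and 2391 at 72 h, and 999 and 1049 at 14 d. The C57BL/6J saline arrays read 1004 and 814, 664 and 771, and 1089.6 and 1034 at the same times. The bleomycin arrays of 24 h and 72 h thus lay above every saline array, and those of 14 d overlapped the saline arrays. BALB/c bleomycin arrays read 1173 and 1156, 1311 and 1473, and 1192 and 1184, and BALB/c saline arrays 1092 and 794, 1130.1 and 1048, and 1169 and 1213. In C57BL/6J Isg15 rose 3.77-fold at 24 h (log2 change 1.91 ± 0.16 SE, adjusted p = 3.71e-06) and 3.55-fold at 72 h (1.83 ± 0.16, adjusted p = 1.46e-06). At 72 h the log2 change was 1.42 without the saline arrays of that time and 1.28 with their strain labels exchanged, and it was called under both. At 14 d the C57BL/6J value was -0.05 ± 0.16 (adjusted p = 0.899). The BALB/c values of 0.29, 0.33 and -0.00 at the 3 times were not called, with adjusted p of 0.428, 0.491 and 0.993, but at 72 h Isg15 was called with exchanged labels (0.88, adjusted p = 0.0491). It stood at 0.37 (adjusted p = 0.138) when the 72 h saline arrays were left out. In order of mean level, C57BL/6J bleomycin at 24 h stood first, at 72 h second and BALB/c bleomycin at 72 h came next, each without overlap with the next. The groups of rank 7 to 11 overlapped from one to the next, and C57BL/6J saline at 72 h was last.

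Usp18 (95024_at), the protease that opposes Isg15 conjugation, rose in C57BL/6J at 24 h and 72 h and in BALB/c at 14 d. C57BL/6J bleomycin arrays read 2081 and 1844 at 24 h, 2176 and 1842 at 72 h, and 415 and 557 at 14 d, against saline values of 544 and 596, 485 and 417, and 625 and 702. BALB/c bleomycin arrays read 652 and 681, 893 and 1151, and 659 and 934, against 481 and 464, 697 and 614, and 538 and 474. The bleomycin arrays were above the saline arrays of their own strain and time in every group but C57BL/6J at 14 d, where both were below. In C57BL/6J Usp18 rose 3.10-fold at 24 h (log2 1.63 ± 0.17, adjusted p = 5.08e-05) and 3.87-fold at 72 h (1.95 ± 0.17, adjusted p = 1.46e-06), and at 14 d its value was -0.40 ± 0.17 (adjusted p = 0.182). The 72 h value was 1.57 without the saline arrays of 72 h and 1.49 with exchanged labels, called under both. In BALB/c the values were 0.43 at 24 h (adjusted p = 0.279) and 0.57 at 72 h (adjusted p = 0.153), and Usp18 rose 1.47-fold at 14 d (0.56 ± 0.17, adjusted p = 0.0423). The BALB/c value at 72 h became 0.93 without the saline arrays of 72 h (adjusted p = 0.00343) and 1.03 with exchanged labels (adjusted p = 0.041), and was then called. The BALB/c call at 14 d was lost when bleomycin array b of 14 d (0.33, adjusted p = 0.399), saline array a (0.63, adjusted p = 0.115) or saline array b (0.48, adjusted p = 0.222) was left out. It was also lost, at an unchanged log2 value and adjusted p of 0.0515 to 0.0527, when any 24 h bleomycin array of either strain was left out.

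**Figure D2:**
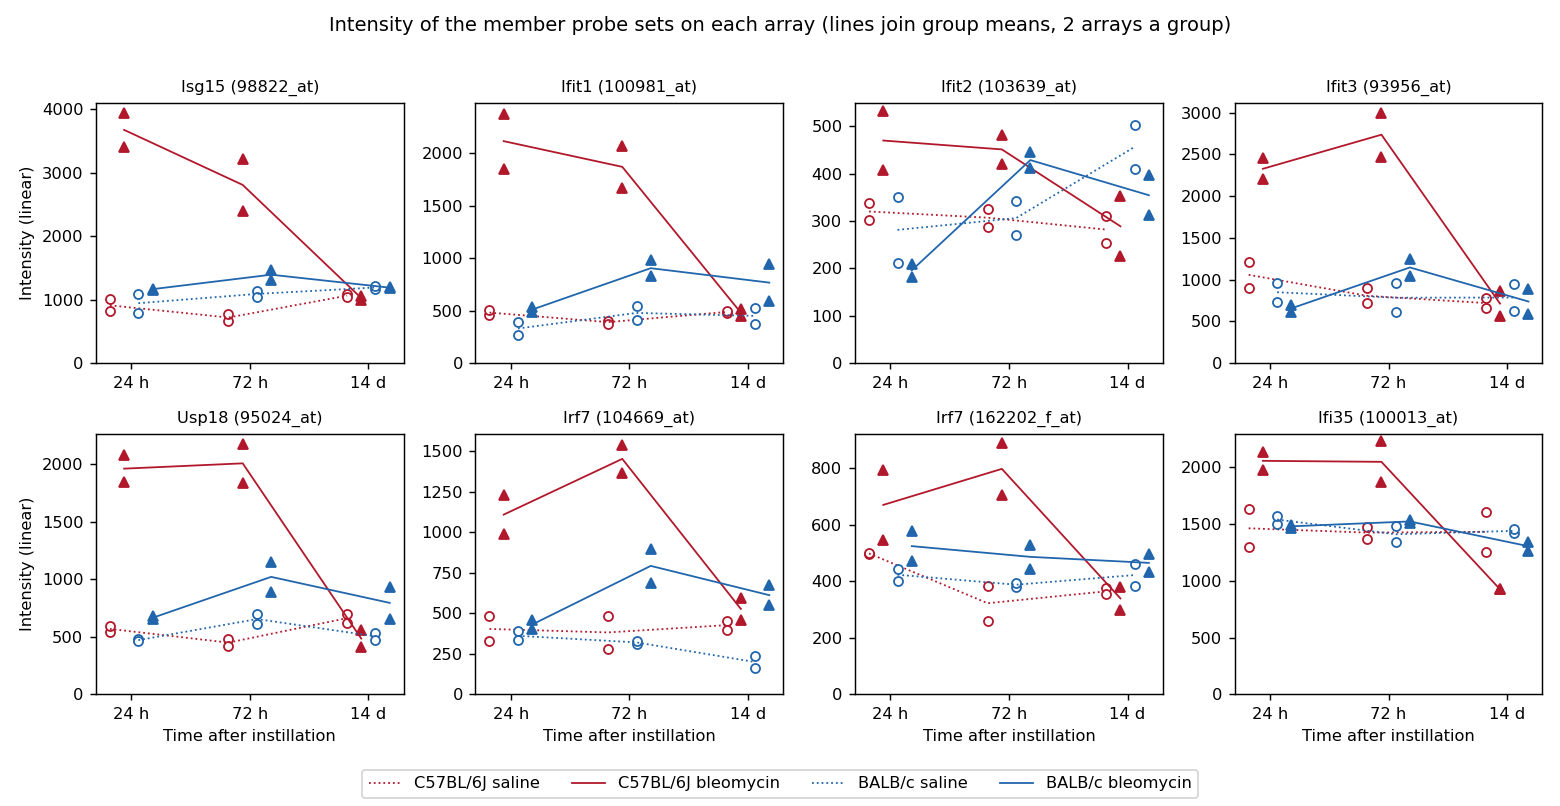
Linear intensity (vertical axes, from 0) of the 8 member probe sets on each of the 24 arrays at 24 h, 72 h and 14 d (horizontal axes), for C57BL/6J in red and BALB/c in blue. Filled triangles are bleomycin arrays, open circles saline arrays, and lines join group means of 2 arrays; the C57BL/6J bleomycin triangles stand above all other arrays at 24 h and 72 h for 6 probe sets, and the Ifit2 panel shows groups that overlap.

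Ifit1 (100981_at), whose protein binds viral RNA that lacks the host cap modification, rose in C57BL/6J at 24 h and 72 h and was not called in BALB/c as labelled. C57BL/6J bleomycin arrays read 2378 and 1855 at 24 h, 2073 and 1670.4 at 72 h, and 511 and 450.2 at 14 d, against 457 and 506, 406 and 375, and 482 and 493 after saline. BALB/c bleomycin arrays read 533 and 488, 829 and 981, and 589.6 and 945, against 392 and 268, 413 and 544, and 527 and 373. In BALB/c the bleomycin arrays were above the saline arrays at all 3 times, and in C57BL/6J at 24 h and 72 h. Ifit1 rose 3.83-fold in C57BL/6J at 24 h (log2 1.94 ± 0.21, adjusted p = 7.11e-05) and 4.05-fold at 72 h (2.02 ± 0.21, adjusted p = 1.18e-05). The 72 h value was 1.76 without the saline arrays of that time and 1.79 with exchanged labels. The BALB/c values of 0.53, 0.81 and 0.65 missed the threshold at 24 h (adjusted p = 0.274), 72 h (0.082) and 14 d (0.052). At 72 h the BALB/c value was 1.07 without the saline arrays of that time and was then called (adjusted p = 0.00437), and it was 1.04 with exchanged labels (adjusted p = 0.0903). It was also called, at an unchanged value, when either BALB/c bleomycin array of 14 d was left out (adjusted p = 0.0421 and 0.0424). At 14 d it was called when BALB/c bleomycin array a was left out (0.95, adjusted p = 0.0118) or either BALB/c saline array of 24 h (0.65, adjusted p = 0.046), with the filter at the 60th percentile (0.65, adjusted p = 0.0455), and with all 6 BALB/c saline arrays as the control (0.74, adjusted p = 0.0102).

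Ifit3 (93956_at), whose human counterpart stabilises the partner protein IFIT1, rose in C57BL/6J and was not called in BALB/c. Its C57BL/6J bleomycin intensities were 2452 and 2201 at 24 h, 2997 and 2472 at 72 h, and 561 and 864 at 14 d, against 898 and 1216, 895 and 716, and 664 and 774. BALB/c bleomycin arrays read 609 and 701, 1046 and 1244, and 589 and 885, against 961 and 735, 611 and 954, and 951 and 619. The BALB/c arrays after bleomycin were below those after saline at 24 h and above them at 72 h. Ifit3 rose 2.12-fold in C57BL/6J at 24 h (log2 1.09 ± 0.25, adjusted p = 0.0314) and 3.15-fold at 72 h (1.66 ± 0.25, adjusted p = 0.000456). The 24 h call was lost without C57BL/6J bleomycin array a (1.01, adjusted p = 0.255) or b (1.16, adjusted p = 0.0993) or saline array a (0.88, adjusted p = 0.279). At 72 h it was called under every choice of saline arrays, at 1.55 without those of 72 h and 1.71 with exchanged labels. The BALB/c values of -0.32, 0.52 and -0.08 had adjusted p of 0.596, 0.474 and 0.87, and that of 72 h was 0.46 without the saline arrays of that time and 0.47 with exchanged labels. Mice also carry Ifit3b, a close copy of Ifit3, and whether the probe set tells them apart was not tested.

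Ifit2 (103639_at) was not called for bleomycin against saline in either strain at any time. Its C57BL/6J bleomycin arrays read 532 and 407 at 24 h, 421 and 481 at 72 h, and 352 and 225 at 14 d, against 301 and 338, 326 and 288, and 253 and 310.4. BALB/c bleomycin arrays read 210.1 and 181, 411 and 445, and 312 and 396, against 350.3 and 212, 269.6 and 342, and 409 and 503. The C57BL/6J bleomycin arrays of 24 h and 72 h were above the saline arrays of the same time, and the BALB/c bleomycin arrays of 24 h were the 2 lowest BALB/c readings. The C57BL/6J log2 values were 0.44 ± 0.21 (adjusted p = 0.355) at 24 h and 0.44 ± 0.21 (adjusted p = 0.246) at 72 h. The 72 h values, 0.47 in C57BL/6J and 0.22 in BALB/c without the saline arrays of that time and 0.45 and 0.38 with exchanged labels, were not called either. The BALB/c values were -0.35 (adjusted p = 0.481), 0.39 (adjusted p = 0.549) and -0.30 (adjusted p = 0.377) at 24 h, 72 h and 14 d.

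Irf7 is measured by 104669_at and 162202_f_at, the suffix of the second marking probes shared by a family of sequences in the maker's naming. On 104669_at, C57BL/6J bleomycin arrays read 1227 and 990.0 at 24 h, 1367 and 1537 at 72 h, and 593 and 462 at 14 d, against 327 and 481, 483 and 281, and 455 and 399.7. BALB/c bleomycin arrays read 401 and 461, 687 and 899, and 674 and 549.8, against 334 and 389.7, 313 and 329, and 164 and 236. The bleomycin arrays of both strains were above their saline arrays at all 3 times. Irf7 rose 2.44-fold in C57BL/6J at 24 h (log2 1.29 ± 0.22, adjusted p = 0.00426) and 3.33-fold at 72 h (1.73 ± 0.22, adjusted p = 7.58e-05), and at 14 d its value was 0.25 ± 0.22 (adjusted p = 0.56). The 72 h value was 1.61 without the saline arrays of that time and 1.90 with exchanged labels, called under both. The 24 h call was lost without bleomycin array a (1.14, adjusted p = 0.0952) or saline array a (1.06, adjusted p = 0.088). In BALB/c it rose 2.13-fold at 72 h (1.09 ± 0.22, adjusted p = 0.0139) and 2.42-fold at 14 d (1.28 ± 0.22, adjusted p = 0.00183), and at 24 h its value was 0.21 (adjusted p = 0.708). The BALB/c call at 72 h was lost with exchanged labels (0.92, adjusted p = 0.176) and without bleomycin array b (0.92, adjusted p = 0.233), saline array a (1.06, adjusted p = 0.122) or saline array b (1.12, adjusted p = 0.0806), and was kept without the 4 saline arrays of 72 h (1.28). The probe set 162202_f_at was called in 1 of these 6 comparisons. Its C57BL/6J values were 0.35 at 24 h (adjusted p = 0.433) and 1.11 at 72 h (a 2.16-fold rise, adjusted p = 0.0016), and none of its 3 BALB/c values, 0.25, 0.27 and 0.12, was called. At 72 h its C57BL/6J value was 0.77 without the saline arrays of that time and 0.88 with exchanged labels, called under both, and its BALB/c values of 0.17 and 0.49 were not called. Its C57BL/6J bleomycin arrays read 794 and 545 at 24 h and 888 and 705 at 72 h, against saline values of 497 and 499, and 261 and 383.

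Ifi35 (100013_at) read 922 to 2223 over the arrays and was the only member called lower after bleomycin than after saline. C57BL/6J bleomycin arrays read 2129.8 and 1976 at 24 h, 2223 and 1865 at 72 h, and 926 and 922 at 14 d, against 1627 and 1293, 1369 and 1475, and 1604 and 1255. The bleomycin arrays were above every saline array at 24 h and 72 h, and at 14 d were the 2 lowest readings of the series. The log2 value in C57BL/6J was 0.47 ± 0.14 at 24 h (adjusted p = 0.0856). Ifi35 rose 1.41-fold at 72 h (0.49 ± 0.14, adjusted p = 0.0399) and fell 1.49-fold at 14 d (-0.57 ± 0.14, adjusted p = 0.0178). The 72 h call was lost when any C57BL/6J array of 72 h was left out, with values of 0.37 (adjusted p = 0.323) without bleomycin array a, 0.61 (0.0612) without b, 0.44 (0.176) without saline array a and 0.54 (0.124) without b. It was also lost after quantile normalization (0.47, adjusted p = 0.0582) and with exchanged labels (0.51, adjusted p = 0.0607), was kept without the 4 saline arrays of 72 h (0.48, adjusted p = 0.0356), and was lost, at an unchanged log2 value, without any 1 of 8 arrays of other groups: both 24 h bleomycin arrays of each strain, both BALB/c bleomycin arrays of 72 h and both BALB/c saline arrays of 14 d (adjusted p of 0.0514 to 0.0558). The 14 d call was lost without bleomycin array a (-0.58, adjusted p = 0.123) or saline array a (-0.41, adjusted p = 0.158). The 12 BALB/c arrays read 1262 to 1571, and the BALB/c log2 values were -0.05, 0.11 and -0.13, with adjusted p of 0.899, 0.874 and 0.563, that of 72 h being 0.03 without the saline arrays of that time and 0.09 with exchanged labels.

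The saline arrays of 72 h enter the pooled comparison of that time in a way that the exchange of strain labels cannot alter, since both strains count equally. A fault in the treatment label would not cancel, and the descriptions contradict that label for the BALB/c saline arrays of 72 h. Over both strains at 72 h, 6 of the 8 member probe sets were called higher, where 3.21% of all probe sets were called. The log2 changes were 1.08 ± 0.11 for Isg15, 1.26 ± 0.12 for Usp18, 1.41 ± 0.15 for Ifit1, 1.09 ± 0.18 for Ifit3, 1.41 ± 0.15 for Irf7 104669_at and 0.69 ± 0.14 for Irf7 162202_f_at, with adjusted p from 1.42e-05 (Usp18) to 0.00837 (162202_f_at). Ifit2 (0.42, adjusted p = 0.15) and Ifi35 (0.30, adjusted p = 0.107) were not called, though Ifi35 was with all saline arrays as the control (0.27, adjusted p = 0.0406), where 7 of 8 were called against 9.75% of all probe sets. The call of 162202_f_at was lost without BALB/c bleomycin array b of 72 h (0.63, adjusted p = 0.056) or C57BL/6J bleomycin array a (0.61, adjusted p = 0.0552).

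The strains were compared directly after bleomycin, so that no saline array enters the difference, while the error estimate is shared by all 12 groups. At 24 h, 6 of the 8 member probe sets were higher in C57BL/6J than in BALB/c, where 1.87% of all probe sets were called. Isg15 was 2.99-fold higher (log2 1.58 ± 0.16, adjusted p = 1.38e-05), Ifit1 3.65-fold (1.87 ± 0.21, adjusted p = 4.61e-05), Ifit3 3.24-fold (1.70 ± 0.25, adjusted p = 0.00076) and Usp18 2.71-fold (1.44 ± 0.17, adjusted p = 9.51e-05). Irf7 104669_at was 2.29-fold higher (1.19 ± 0.22, adjusted p = 0.00545) and Ifit2 1.94-fold (0.96 ± 0.21, adjusted p = 0.0245). Every C57BL/6J array was above both BALB/c arrays for these 6 and for Ifi35 (0.45, adjusted p = 0.142), and 162202_f_at overlapped (0.29, adjusted p = 0.569). Of all probe sets, 20.4% had both C57BL/6J arrays above both BALB/c arrays. The Ifit2 call was lost without any 1 of the 4 arrays, with values of 0.80 to 1.12 and adjusted p of 0.0561 to 0.279. The Irf7 call was lost without BALB/c array a (1.11, adjusted p = 0.0615) or C57BL/6J array a (1.05, adjusted p = 0.119).

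At 72 h after bleomycin, 4 of 8 were higher in C57BL/6J, where 1.64% of all probe sets were called. They were Isg15 (0.95 ± 0.16, adjusted p = 0.00309), Ifit1 (0.97 ± 0.21, adjusted p = 0.022), Ifit3 (1.19 ± 0.25, adjusted p = 0.0168) and Usp18 (0.92 ± 0.17, adjusted p = 0.00795). Both C57BL/6J arrays lay above both BALB/c arrays for 7 of 8, these 4 among them, where 27.5% of all probe sets did so. All 4 calls were lost without BALB/c array a or without C57BL/6J array a. Without BALB/c array a the adjusted p was 0.0673 for Isg15, 0.278 for Ifit1, 0.223 for Ifit3 and 0.176 for Usp18, and without C57BL/6J array a it was 0.0836, 0.249, 0.187 and 0.127. Ifit1 and Ifit3 were also lost without BALB/c array b (0.0845 and 0.0689) or C57BL/6J array b (0.0713 for both). The log2 differences without 1 of these arrays stayed between 0.74 and 1.32 for the 4 genes. Irf7 104669_at (0.81, adjusted p = 0.0775) was called only with a larger offset (0.70, adjusted p = 0.0333) or without C57BL/6J saline array a (adjusted p = 0.0494) or b (0.0488) of 72 h. Ifit2 read nearly alike in the strains at 72 h, with a difference of 0.06 and a 95% interval of -0.39 to 0.51.

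At 14 d after bleomycin Usp18 (-0.61 ± 0.17, adjusted p = 0.0244) and Ifi35 (-0.46 ± 0.14, adjusted p = 0.0332) were called lower in C57BL/6J. These are 2 of 8, against 15.7% of all probe sets, whose median difference was -0.125. At 24 h and 72 h Usp18 was called higher in C57BL/6J, whereas Ifi35 was not called (adjusted p = 0.142 and 0.216). Both C57BL/6J arrays lay below both BALB/c arrays for 5 of 8, against 32.5% of all probe sets. Both calls were lost after quantile normalization, with adjusted p of 0.0759 and 0.124, and both without C57BL/6J array a (adjusted p = 0.274 for Usp18 and 0.172 for Ifi35) or BALB/c array b (0.234 and 0.16). Ifi35 was also lost without BALB/c array a (0.0557) or C57BL/6J array b (0.0623). Ifit1, at -0.56 (adjusted p = 0.0838), was called without BALB/c array a (-0.86, adjusted p = 0.0208). After saline the strains differed in none of the 8 at 24 h, by limma, against 2.5% of all probe sets. An unadjusted p under 0.05 was reached there by 1 of 8 and by 1317 of all 8710. None of the 8 differed at 72 h as labelled, against 1.22%, where an exchange of labels turns only the sign. Unadjusted, 2 of 8 and 856 of 8710 passed at that time. At 14 d after saline 1 differed, against 14.8%: Irf7 104669_at was higher in C57BL/6J (0.84 ± 0.22, adjusted p = 0.0169), a call lost without BALB/c array a (0.66, adjusted p = 0.162) or C57BL/6J array a (0.76, adjusted p = 0.112).

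**Figure D3:**
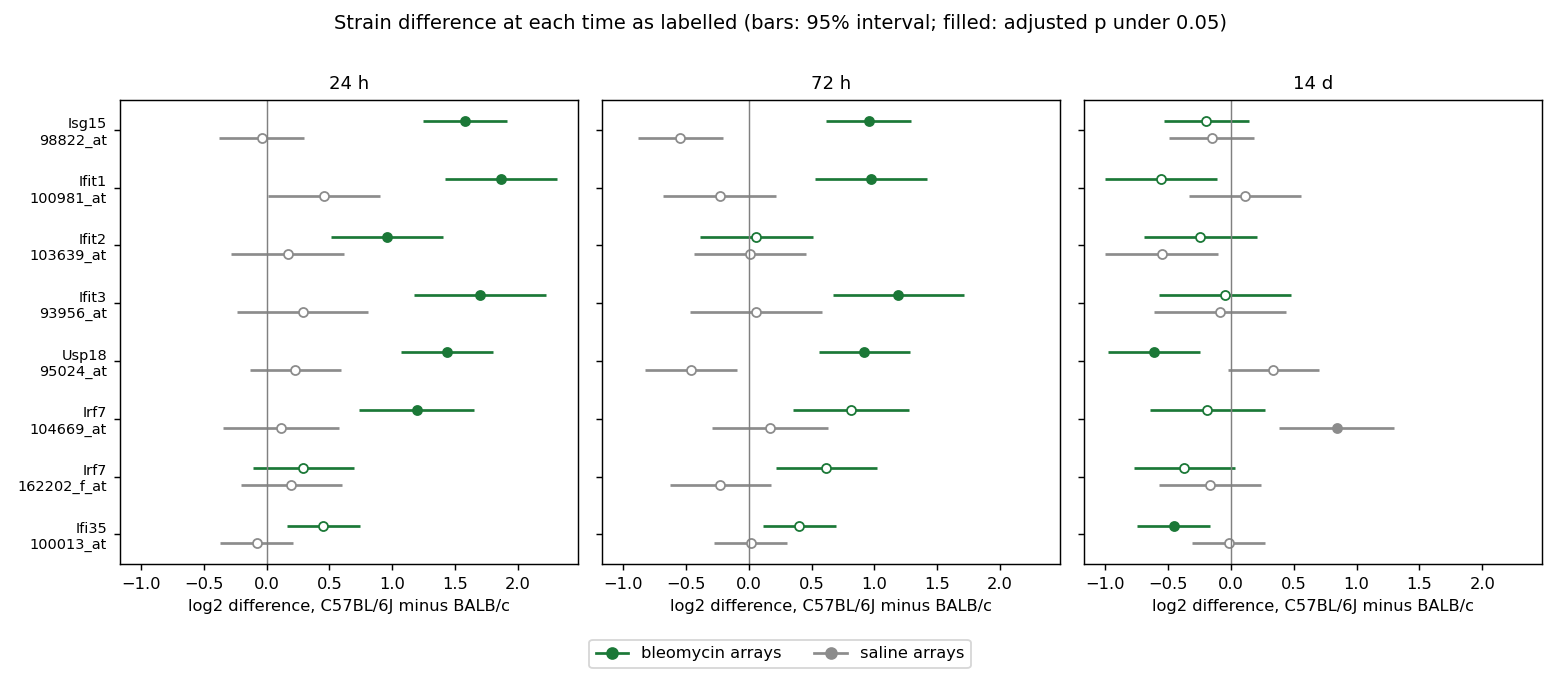
Log2 difference between C57BL/6J and BALB/c arrays of the same time for the 8 member probe sets (rows), after bleomycin (green) and after saline (grey), at 24 h, 72 h and 14 d, with 2 arrays a group. Bars are 95% intervals and filled points passed an adjusted p under 0.05; green points are filled for 6 probe sets at 24 h, all above 0, for 4 at 72 h, and for Usp18 and Ifi35 at 14 d, both below 0.

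The difference between the strains' responses was then tested as an interaction, the C57BL/6J change minus the BALB/c change. At 24 h, 2 probe sets of the whole array were called (0.023%), and Isg15 was one of them, with a difference of 1.62 ± 0.23 (adjusted p = 0.0127). The other members' differences at 24 h were 1.41 for Ifit1 and 1.21 for Usp18 (adjusted p = 0.0983 for both), 1.41 for Ifit3 (0.173), 1.08 for Irf7 104669_at (0.263), 0.79 for Ifit2 (0.405), 0.53 for Ifi35 (0.387) and 0.09 for 162202_f_at (0.952). All 8 were above 0, as were 49.9% of all probe sets. An unadjusted p under 0.05 was reached by 7 of the 8 and by 840 of all 8710 probe sets. The Isg15 call was lost without BALB/c bleomycin array b of 24 h (1.61, adjusted p = 0.113) or C57BL/6J bleomycin array a (1.52, adjusted p = 0.157). When the 6 saline arrays of each strain served as its control, 4 were called: Isg15, Ifit1 (1.75) and Usp18 (1.40), the last 2 both at an adjusted p of 0.00223, and Ifit3 (1.61, adjusted p = 0.0127). With the C57BL/6J saline arrays of 14 d in place of those of 24 h, 2 were called, Isg15 and Ifit3 (1.90, adjusted p = 0.0394). The shares of all probe sets called under these other controls are not given here.

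At 72 h as labelled, 3 of the 8 responses were called larger in C57BL/6J, where 3.08% of all probe sets were called: Isg15 (1.50 ± 0.23, adjusted p = 0.000587), Usp18 (1.38 ± 0.24, adjusted p = 0.00249) and Ifit1 (1.21 ± 0.30, adjusted p = 0.0339). These 3 calls depended on the saline arrays of 72 h. With their strain labels exchanged none was called by limma, and the values were 0.41 for Isg15 (adjusted p = 0.841), 0.46 for Usp18 (0.827) and 0.74 for Ifit1 (0.699). When they were left out and replaced by the saline arrays from 24 h and 14 d, only Isg15 was called (1.05), and Usp18 (0.64, adjusted p = 0.174) and Ifit1 (0.69, adjusted p = 0.231) were not. With the saline arrays of 14 d alone, Isg15 (1.11) was again the only call, with Usp18 at 0.58 (adjusted p = 0.185) and Ifit1 at 0.86 (adjusted p = 0.114). The Ifit1 call was also lost without either bleomycin array of BALB/c, bleomycin array a or either saline array of C57BL/6J, or saline array b of BALB/c, with values of 1.04 to 1.32 and adjusted p of 0.0626 to 0.16. The difference for Ifit3 moved little with the control, from 1.13 as labelled to 1.09 without the saline arrays of 72 h and 1.25 with exchanged labels, and was not called under these.

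**Figure D4:**
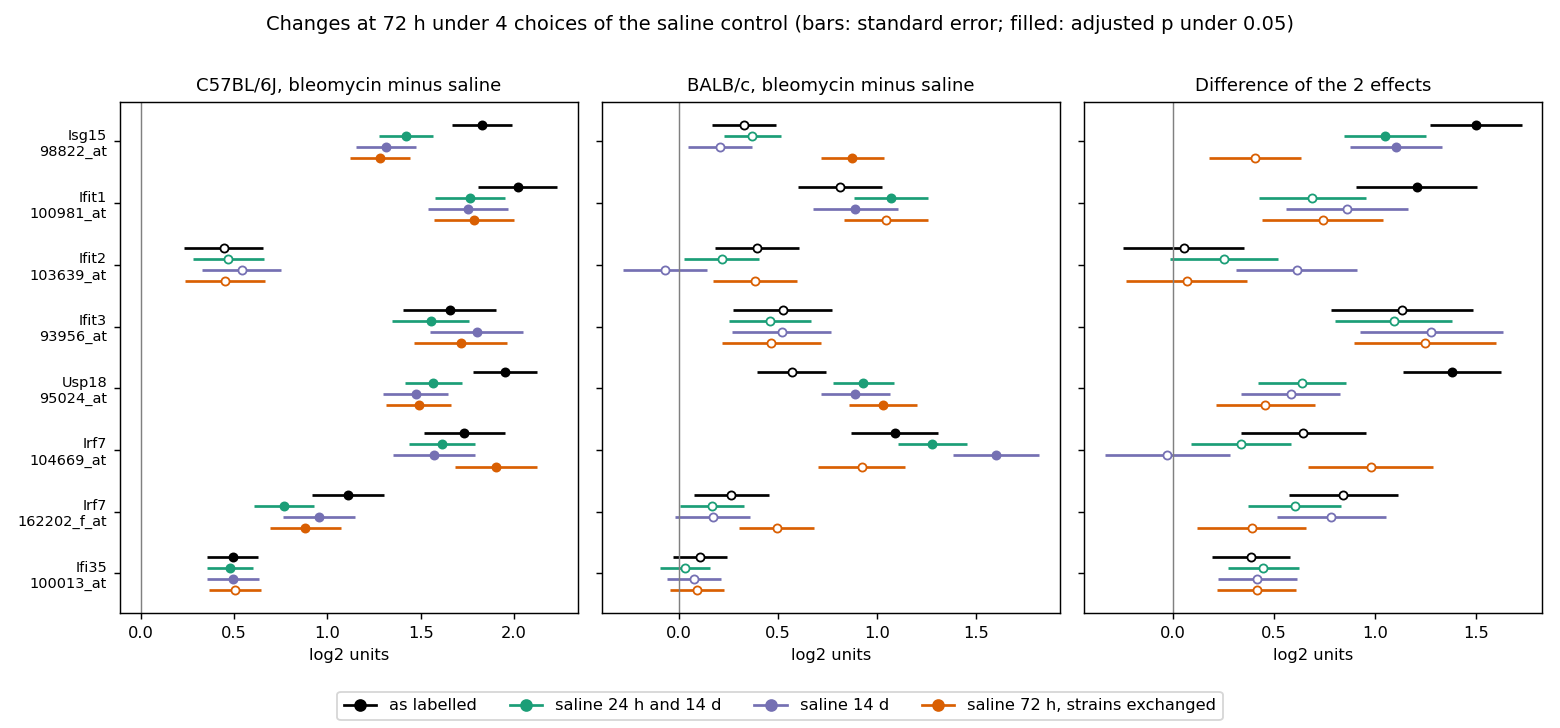
Log2 change from saline to bleomycin at 72 h in C57BL/6J and in BALB/c, and the difference of these changes, for the 8 member probe sets (rows) under 4 choices of saline control. Bars are standard errors and filled points passed an adjusted p under 0.05; in the right panel Isg15, Ifit1 and Usp18 are filled in black (as labelled), only Isg15 is filled with the controls of other times, and no point is filled with exchanged labels (orange).

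At 14 d the Usp18 responses differed in the other direction (-0.95 ± 0.24, adjusted p = 0.0305), 1 of 8 against 7.38% of all probe sets. This call was lost with all saline arrays as the control (-0.65, adjusted p = 0.059), without either BALB/c saline array of 14 d (adjusted p = 0.068 and 0.108), BALB/c bleomycin array b (-0.73, adjusted p = 0.132), C57BL/6J bleomycin array a (-0.77, adjusted p = 0.102) or C57BL/6J saline array b (-0.88, adjusted p = 0.0865). Irf7 104669_at stood at -1.03 (adjusted p = 0.0512), and was called, at an adjusted p of 0.0392 to 0.046, without any 1 C57BL/6J saline array of 24 h or 72 h. Ifit1 stood at -0.67 (adjusted p = 0.182) and was called without BALB/c bleomycin array a (-0.97, adjusted p = 0.0465). The change of each strain's response from 24 h to 14 d was tested as well. In C57BL/6J it was called for 4 of 8, where 2.71% of all probe sets were called, and all 4 fell: Usp18 by 2.03 ± 0.24, Isg15 by 1.96 ± 0.23, Ifit1 by 1.96 ± 0.30 and Ifi35 by 1.05 ± 0.20 on the log2 scale, with adjusted p from 0.000459 (Isg15) to 0.00898 (Ifi35). Ifit3 (-1.12, adjusted p = 0.0967) was called without C57BL/6J bleomycin array b of 14 d (-1.39, adjusted p = 0.0279), and Irf7 104669_at (-1.04, adjusted p = 0.0805) was not. With the saline arrays of 14 d as the control at both times, saline drops out and the bleomycin arrays of 14 d and 24 h are compared directly. In that comparison 7 of 8 were called, Ifit2 being the exception, so it does not retest the change of response. The share of all probe sets called there is not given here. For the change of response in BALB/c none of 8 was called by limma, against 4.95%. An unadjusted p under 0.05 was reached by 1 of 8 and by 2119 of all 8710 probe sets. Irf7 104669_at stood at 1.07 (adjusted p = 0.0549). Irf7 was called, at that value and adjusted p of 0.0388 to 0.0469, without any 1 of 6 C57BL/6J arrays, both bleomycin arrays of 14 d and the saline arrays of 24 h and 72 h.

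The members were alike in pattern to different degrees. Over the 24 arrays, which share groups and are not independent, Pearson's r of the log2 values was highest between Ifit1 and Usp18 (0.97), and 0.93 for Isg15 with each of them. Ifit2 was least like the rest, with r of 0.37 (162202_f_at) to 0.64 (Ifit1). The 2 Irf7 probe sets had an r of 0.66 with each other. Among 6457 other genes, the 8 most like the mean standardised log2 level of the members were Gm9706 (r = 0.94), Cxcl10 (0.87), Ifih1 (0.87), Mx1 (0.86), Ei24 (0.84), Il18bp (0.83), Ccl7 (0.81) and Cltb (0.81). Cxcl10, Ifih1 and Mx1 are in the interferon lists below, and the other 5 are in none. Cxcl10 encodes a chemokine for T cells, Ifih1 the RNA sensor MDA5, Mx1 a GTPase, Il18bp a soluble inhibitor of interleukin 18 and Ccl7 a monocyte chemokine. Gm9706 is a pseudogene in RefSeq, read by a probe set that also has the family suffix (161511_f_at), with intensities of 131 to 1152.

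Other genes of the interferon system were taken from 6 lists: ligands and receptors (10 genes tested), signalling and its control (14), nucleic acid and pattern sensors (6), antiviral and type I effectors (21), Isg15 conjugation (2) and interferon gamma GTPases, chemokines and antigen processing (18). Together they hold 71 tested genes. These lists too were chosen with earlier results of these data known, so their shares are descriptive. In C57BL/6J at 24 h, 5.63% of the 71 were called, against 2.23% of all probe sets. They were 1 of 6 sensors and 3 of 21 effectors, all higher, namely Ifih1 (log2 0.78), Rsad2, an antiviral enzyme (1.20), Mx1 (0.98) and Lgals3bp, a secreted galectin ligand (0.74). The median of the effector list was 0.30 against 0.05 over all genes tested. Irf9, the DNA-binding subunit of the type I complex, stood at 0.53 (adjusted p = 0.116), and no gene of the other 4 lists was called. In BALB/c at 24 h limma called none of the 71 genes. Of these, 8 had an unadjusted p under 0.05, as did 1182 of the 8710 probe sets tested. Neither interferon gene itself could be followed: Ifnb1 read 8.4 to 146.8 and Ifng 1.9 to 105.4, both under the filter.

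In C57BL/6J at 72 h as labelled, 12 of the 71 list genes were called higher and 1 lower, 18.3% of the list against 6.62% of all probe sets. Without the saline arrays of 72 h, 9 were called higher and none lower by limma, and with exchanged labels 6 and none. As labelled, 5 of 21 effectors rose and none fell. Mx1 (1.52, 1.12 without these arrays and 0.99 with exchanged labels), Lgals3bp (1.41, 0.93 and 1.24) and Rsad2 (1.36, 1.48 and 1.25) were called under all 3. So were the sensor Ifih1 (1.06, 1.01 and 0.68), the signalling gene Socs3, a feedback inhibitor of cytokine signalling (1.71, 1.14 and 1.32), and the chemokine gene Cxcl10 of the interferon gamma list (1.66, 1.58 and 1.61). Called only as labelled were Myd88, an adaptor of Toll-like receptors (0.92, 0.22 and 0.52), Irf9 (0.60, 0.33 and 0.31) and the GTPase Gbp2 (0.77, 0.31 and 0.16). Gbp2b was called lower as labelled (-3.34) and stood at -0.20 without these arrays and -0.05 with exchanged labels. Gbp2b was higher in BALB/c at 24 h and 14 d after saline (C57BL/6J minus BALB/c -3.19 and -3.52) while at 72 h as labelled the sign was opposite (3.29), on the same arrays as for H2-Ea. Over both strains at 72 h, where the strain labels cancel, Lgals3bp (1.06), Mx1 (0.94), Ifih1 (0.63), Myd88 (0.62), Irf9 (0.48), Socs3 (1.12), Cxcl10 (1.09) and Iigp1, an interferon-induced GTPase (0.77), were called higher and no gene of the lists lower, 11.3% of the 71 against 3.21% of all probe sets. Without the saline arrays of 72 h, 17 of the 71 were called higher and 2 lower over both strains. The share of all probe sets called under that choice is not given here. In BALB/c at 72 h as labelled, 4.23% of the 71 were called, against 1.32%: the effectors Lgals3bp (0.71) and Ifi202b (1.47), and Gbp2b (3.82). Of these, Lgals3bp was also called without the saline arrays of 72 h (1.02) and with exchanged labels (0.89). Ifi202b stood at 0.67 (adjusted p = 0.141) and 0.75 (adjusted p = 0.476), and Gbp2b at 0.32 (adjusted p = 0.355) and 0.53 (adjusted p = 0.538).

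Irf9 was called at 14 d in both strains, in opposite directions. The shares of the 71 list genes called at 14 d, 8.45% in C57BL/6J, 14.1% in BALB/c and 8.45% for the interaction, lay near the 7.43%, 13.3% and 7.38% of all probe sets. In C57BL/6J Irf9 fell (-0.92, adjusted p = 0.00357), from saline intensities of 2926 and 2277 to 1257 and 1394, as did the effectors Isg20 (-0.69) and Tor3a (-0.63), while Socs3 (1.44), Tlr6 (0.77) and Iigp1 (1.20) rose. In BALB/c Irf9 rose (0.60, adjusted p = 0.026), from 1446 and 1546 to 2187 and 2441. The BALB/c lungs of 14 d also had higher Ifnar2 (1.46), a subunit of the type I receptor, Irf8 (0.52), Socs3 (1.10), Myd88 (0.75), Lgals3bp (1.21), Ifi202b (1.03) and Psme1, an immunoproteasome activator (0.78), and lower Ifitm3 (-1.03). The interaction at 14 d was called for Irf9 (-1.52, adjusted p = 0.00304), Lgals3bp (-1.33), Tor3a (-1.18), Psme1 (-0.96) and Irf3 (-0.90), all with the BALB/c change higher, and for Tlr6 (1.03) with the C57BL/6J change higher. Directly after bleomycin at 24 h, where 14.1% of the list genes were called against 1.87% of all probe sets, C57BL/6J exceeded BALB/c for 3 of 21 effectors, Trim21 (1.15), Cmpk2 (1.22) and Lgals3bp (0.67), and for Ifih1 (0.75), Trim25 (0.92), Irf9 (0.72), Gbp2 (1.06) and Irgm2 (1.01), and fell below it for Tlr6 (-0.89) and Gbp2b (-3.25).

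Markers of 8 cell types were summed on each array to set beside these changes. In C57BL/6J at 24 h, the 5 plasmacytoid dendritic cell markers on the array, of 7 listed, summed to 4528 to 4554 after bleomycin and 4406 to 4873 after saline, which overlap. Of these markers, Ccr9 and Klk1 read 28 to 196 and 20 to 210 on the 24 arrays, below the filter threshold of 226. Irf8 read 1021 to 2000.5, Tcf4 1482 to 3194 and Ly6d 98 to 1267, so Tcf4 and Irf8 made up most of the sum. No marker was at 0. The sums of the 8 neutrophil markers and of the 11 T and NK cell markers, of 13 listed, also overlapped there. The 10 monocyte and macrophage markers, of 11 listed, were lower after bleomycin (21830 to 22155 against 24938 to 30197), as were the 7 B and plasma cell markers, of 8 listed (7827 to 8452 against 8742 to 11836). The structural cells differed most in that comparison. Alveolar type 2 markers (3 of 7 listed) summed to 3273 to 12183 after bleomycin against 64460 to 105099 after saline, airway secretory markers (2 of 4) to 5182 to 10904 against 49482 to 67014, and the 7 endothelial markers to 18777 to 24902 against 40193 to 51664. The C57BL/6J saline arrays of 14 d, against which 7 of 8 members were called, summed to 576 to 2213, 4361 to 12106 and 20457 to 27473 for the same 3 lists. Against those arrays the monocyte and macrophage markers were instead higher at 24 h after bleomycin (saline 16783 to 17491), as were neutrophil markers (8840 to 9935 against 4519 to 5072). B and plasma cell markers stayed lower (saline 8568 to 9657), plasmacytoid dendritic cell markers were lower (saline 4675 to 5217), and T and NK cell markers overlapped. In BALB/c at 24 h airway secretory (5654 to 8157 against 12030 to 15465) and endothelial markers (20991 to 22390 against 22978 to 23103) were lower after bleomycin and plasmacytoid dendritic cell markers higher (3776 to 4116 against 3426 to 3623), and the other 5 lists overlapped.

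At 72 h as labelled, neutrophil markers were higher after bleomycin in C57BL/6J (8351 to 11895 against 5809 to 6037) and in BALB/c (6791 to 10303 against 6463 to 6780). B and plasma cell markers were lower in C57BL/6J (6500 to 7105 against 8567 to 10462) and in BALB/c (7193 to 7699 against 8265 to 10549), and so were T and NK cell markers (1976 to 2771 against 3145 to 3604, and 2667 to 2945 against 3424 to 3760). With the labels of the saline arrays exchanged, these 3 lists stayed apart in the same direction in both strains. Monocyte and macrophage markers were higher in C57BL/6J as labelled (22308 to 22858 against 18534 to 19405), overlapped with exchanged labels (20806 to 22713), and overlapped in BALB/c. As labelled, in C57BL/6J endothelial markers were lower (20269 to 20882 against 22789 to 25743) and airway secretory markers higher (8123 to 8209 against 7167 to 8105), and in BALB/c the lists of plasmacytoid dendritic cells (4054 to 4505 against 5603 to 5636), alveolar type 2 cells (8230 to 8976 against 12964 to 20633) and airway secretory cells (11099 to 12881 against 14895 to 30680) were lower. With exchanged labels airway secretory markers turned to lower in C57BL/6J (against 14895 to 30680) and higher in BALB/c (against 7167 to 8105). Alveolar type 2 markers then overlapped in BALB/c (against 6103 to 8493) and were lower in C57BL/6J (4171 to 7280 against 12964 to 20633). Endothelial markers stayed lower in C57BL/6J, and plasmacytoid dendritic cell markers were lower in both strains. At 14 d neutrophil markers were higher in both strains (7066 to 11525 against 4519 to 5072 in C57BL/6J, and 7727 to 8861 against 5062 to 5363 in BALB/c). In C57BL/6J monocyte and macrophage (22119 to 28179 against 16783 to 17491) and alveolar type 2 markers (2466 to 28679 against 576 to 2213) were higher, and T and NK cell (1731 to 2385 against 2893 to 3564) and B and plasma cell markers (4309 to 6111 against 8568 to 9657) lower. The 2 bleomycin arrays were far apart for Sftpc, at 14580 on a and 710 on b, against 650.5 and 127.4 after saline. In BALB/c at 14 d the alveolar type 2 (222 to 1241 against 4385 to 6039), airway secretory (3184 to 5129 against 10289 to 10726) and endothelial markers (17402 to 17971 against 21821 to 23922) were lower, and the other 4 lists overlapped. Each of these marker differences rests on 2 arrays against 2. Between bleomycin and saline, 17.1% to 32.2% of single probe sets were apart in a given direction. The part of these cell types in the changes of the members was not tested.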

How the data were processed

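The authors deposited 1 linear intensity per probe set and array. The method of summarising probes is not stated in the labels or headers and so is not given in the sources used. On all arrays the trimmed mean (percentiles 2 to 98) was 799.9, from which a common scaling before deposit is inferred. The 66 control probe sets were left out. From these intensities log2(intensity + 91.7) was computed, the offset being the median lower quartile. Probe sets above 225.7, the 40th percentile, on at least 2 arrays were tested: 8710 of 12422. The fit used limma 3.58.1 in R 4.3.3 with 12 group means, 12 residual degrees of freedom, a variance trend and Benjamini-Hochberg adjustment over all probe sets tested, two-sided, for 18 comparisons, and was tested on simulated data. The number of arrays limits the precision, and a log2 change with an offset understates the change of dim probe sets.

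All member probe sets are named in each comparison. From each interferon list up to 3 called genes with the smallest p were named, with Irf9, Ifnb1 and Ifng, and the 8 genes most alike over the arrays. For a gene with several probe sets the one with the highest mean stood for it in the lists. The members and lists were chosen with earlier results of these data known. Alternatives were quantile normalization, 2 other offsets (45.8 and 275.1), no filter and a filter at the 60th percentile, a replicate block, other saline controls and each array left out. Letters a and b were not used to pair arrays in the main fit. Over 66 pairs of groups the a minus b differences correlated at a median of 0.00565 (-0.284 to 0.309). Of these, 14 were above 0.1 and 18 below -0.1, so the median does not exclude a link between some arrays.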

Additional observations from a re-analysis of the deposited data

Results flagged for a closer look

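For 5 of the tested differences the responses of the strains were called different: Isg15 at 24 h (C57BL/6J minus BALB/c 1.62 on the log2 scale) and at 72 h as labelled (1.50), Ifit1 (1.21) and Usp18 (1.38) at 72 h as labelled, and Usp18 at 14 d (-0.95). Of all probe sets, 0.023% were called at 24 h, 3.08% at 72 h and 7.38% at 14 d. The Isg15 call at 24 h and the Usp18 call at 14 d were each lost when certain single arrays were left out. The 3 values of 72 h rest on saline arrays that go against their strain labels, and none of the 3 was called with those labels exchanged. For 4 members the C57BL/6J response at 14 d was called lower than that at 24 h, where 2.71% of all probe sets were called: Isg15 (-1.96), Ifit1 (-1.96), Usp18 (-2.03) and Ifi35 (-1.05). Their 24 h controls are the saline arrays with the very high Sftpc signal. With the saline arrays of 14 d as the control for both times, saline drops out and only the bleomycin arrays of 14 d and 24 h are compared. In that comparison 7 of the 8 member probe sets were called, and the share of all probe sets called there is not given here. The count thus does not retest the change of response.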

How the results depend on the processing

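Of 4742 member values recomputed under the alternatives, 4603 kept their direction and their side of the threshold, 86 lost a call, 53 gained one and 0 reversed a call, while 80 values called under neither setting changed sign. The alternative with the 14 d saline arrays as the control at 72 h was chosen after seeing the data. The replicate block changed 0 of the 144 member calls, for example leaving 5 of 8 called in C57BL/6J at 24 h and 7 at 72 h. The counts below are given without the share of all probe sets called. That share also changed with the setting, so a higher count alone does not show a stronger response of the members. The number called rose to 3 in BALB/c at 72 h without the saline arrays of that time, with all saline arrays or with those of 14 d, and to 2 with exchanged labels. The interaction at 24 h gave 3 with the larger offset, 4 with all saline arrays and 2 with the 14 d saline arrays, against 1. The interaction at 72 h gave 1 without the 72 h saline arrays, 1 with those of 14 d and 0 exchanged, against 3. The interaction at 14 d gave 2 with the smaller offset, the 60th percentile filter or without the 72 h saline arrays, and 0 with all saline arrays, against 1. BALB/c at 14 d gave 1 without a filter or without the 72 h saline arrays and 3 with the 60th percentile filter or all saline arrays, against 2, and the strain difference after bleomycin at 14 d gave 0 after quantile normalization, against 2. The change of response from 24 h to 14 d gave 7 in C57BL/6J with all or with 14 d saline arrays, against 4, and 1 in BALB/c after quantile normalization or without the 72 h saline arrays, against 0. With all or with 14 d saline arrays the control is the same at both times, so saline drops out and the bleomycin arrays are compared directly. Within 1.5 times of the reported count, C57BL/6J gave 7 at 24 h with all or with 14 d saline arrays, against 5, and 6 at 72 h after quantile normalization or with exchanged labels, against 7. Both strains at 72 h gave 7 with all saline arrays, against 6. The cause was not tested in these cases. Leaving out each array gave 3 to 5 called in C57BL/6J at 24 h, 6 to 7 at 72 h and 0 to 1 at 14 d. In BALB/c it gave 0 at 24 h, 0 to 2 at 72 h and 1 to 3 at 14 d, and over both strains at 72 h 5 to 6. For the interactions it gave 0 to 1, 2 to 3 and 0 to 2 at the 3 times, and for the change of response 4 to 5 in C57BL/6J and 0 to 1 in BALB/c. For the strain difference it gave 4 to 6, 0 to 5 and 0 to 2 after bleomycin, and 0, 0 and 0 to 1 after saline.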
